A study of Mus musculus with 4 samples.

Results

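Small RNAs of 21 to 26 nt that lie past the annotated end of a 3' UTR were examined in the liver and the spleen of the mouse. A sequence was a member if it had a single best place on NCBIM37 (mm9) with at most 1 mismatch, less than 50% of it overlapped a protein-coding 3' UTR of GENCODE M1, and it could be reached from the end of a 3' UTR in steps of at most 2 kb between WT sequences of the same tissue. Of the 7845 distinct sequences in the 4 lists, 629 were members, with 364 of them in the liver list and 218 in the spleen list of WT, and 28 and 19 in those of Miwi2-/-. They were compared with the 4441 sequences of the same lengths inside a 3' UTR, of which the WT lists held 2307 for liver and 1559 for spleen, and the Miwi2-/- lists 348 and 227.

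The libraries were made from an adult C57BL/6 wild type (WT) mouse and from a mouse without MIWI2 (Miwi2-/-), a Piwi protein, with the liver and the spleen of each. The RNA was cut from gels at about 24 to 31 nt per the labels, while the study's methods give a somewhat wider region that also takes in shorter RNAs. Each genotype was represented by a single mouse and each tissue of it by 1 library, and genotype, animal and library cannot be told apart. Each list holds distinct sequences without read counts, so each small RNA counted once, however often it was read. It holds only sequences in the clusters that the study called around 3' UTRs, so that how far a cluster was allowed to run also set what could be found past an end.

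The 3' UTR is the part of an mRNA between the stop codon and the poly(A) tail, and it ends where the transcript is cut and polyadenylated downstream of a poly(A) signal. Many genes use more than 1 such site, and the annotated end used here is the last one among the protein-coding transcripts of a gene. piRNAs are small RNAs bound by Piwi proteins, best known from the germ line, and often start with a U. A part of the testis piRNAs comes from 3' UTRs.

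The sequences nearest to and farthest from the annotated end are shown for genes with many members, so that their 5' base and their unmatched ends can be read beside their distance. The first base is in capitals, as is any base that does not match the genome, and the distance is that of the 5' end, with 1 for the first base past the end. In WT liver these were:
Errfi1, 50 nt past the end, chr4:150243051-150243072, plus strand: UuuaaagcaugacagaagaguA
Errfi1, 6722 nt past the end, chr4:150249723-150249745, plus strand: CcgcaguuagcggggaaccuagA
Ppara, 8 nt past the end, chr15:85633257-85633278, plus strand: Aaaaagauugcugcugacgaaa
Ppara, 7978 nt past the end, chr15:85641227-85641252, plus strand: GuuuacaggaaaguuauaaagacuuA
Elk4, 163 nt past the end, chr1:133922264-133922286, plus strand: UcaagagucugaacuagccucaA
Elk4, 6104 nt past the end, chr1:133928205-133928229, plus strand: Aaacaacauuaaagaacgaacucuu
Alb, 420 nt past the end, chr5:90906049-90906074, plus strand: AuugaugaaucuaaagaguugcgugA
Alb, 1572 nt past the end, chr5:90907201-90907221, plus strand: Gaguagaacuaagaaacauaa
Car3, 84 nt past the end, chr3:14872435-14872459, plus strand: UgggaugucugguuccuggaacagA
Car3, 199 nt past the end, chr3:14872550-14872572, plus strand: UuccuuaaacugaaaauucaggA
In 7 of these 10 liver sequences the last letter is a capital A, an A that the genome does not have at that place.

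The same 2 positions are shown for the 6 genes with the most members in WT spleen. The lists write every sequence as it reads on the plus strand, and each was turned to the strand of its gene:
Vmp1, 1352 nt past the end, chr11:86395990-86396015, minus strand: Auuuugcuugucuguauguuuugaga
Vmp1, 6587 nt past the end, chr11:86390759-86390780, minus strand: CcgcuggauguagccaggagcA
Elk4, 162 nt past the end, chr1:133922263-133922286, plus strand: AucaagagucugaacuagccucaA
Elk4, 8462 nt past the end, chr1:133930563-133930585, plus strand: AgccaugguacuggauugugagA
D4Wsu53e, 614 nt past the end, chr4:134484200-134484224, plus strand: CaggaaagccagccuguguauuugA
D4Wsu53e, 3487 nt past the end, chr4:134487073-134487095, plus strand: CugaagccgguuaugaucgcagA
Pik3c2a, 2295 nt past the end, chr7:123478470-123478495, minus strand: Gcagaaagacuuaacguguguuugaa
Pik3c2a, 4087 nt past the end, chr7:123476683-123476703, minus strand: UccuuggaugucugagugagA
Evi2a, 1857 nt past the end, chr11:79338181-79338205, minus strand: GaacuugguuguuuggaagaacagA
Evi2a, 2860 nt past the end, chr11:79337181-79337202, minus strand: CgcacugaaacaccccuuugAu
Zcchc6, 895 nt past the end, chr13:59872322-59872345, minus strand: Ucccgaucuucaccuucuaacagu
Zcchc6, 1862 nt past the end, chr13:59871353-59871378, minus strand: Gccguguccccacuuccggggggucu
The sequence of Elk4 at 163 nt in WT liver was also found in WT spleen. The spleen sequence at 162 nt has 1 more base at its 5' end and the same 3' end. The former was the only member that the 2 WT lists had in common, 0.275% of the 364 and 0.459% of the 218. Inside a 3' UTR, 160 sequences were in both lists, 6.94% of 2307 and 10.3% of 1559. The inside sequences include 161 in liver and 157 in spleen at the gene of miR-21 (Mir21).

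In WT liver the 364 members fell at 127 genes, while sequences inside a 3' UTR came from 486 genes. A single member was found at 66 of the 127 genes, and 16 genes had 5 or more. The 10 genes with the most members held 150 of the 364, or 41.2%. Errfi1, a feedback inhibitor of the EGF receptor, had the most, with 44 past its end and 47 inside its 3' UTR (chromosome 4, 150241609 to 150243001, plus strand). Its members lay from 50 to 6722 nt past the end with a median of 2508.5 nt, they had 43 different 5' ends, and the chain had no step over 610 nt. Ppara, the nuclear receptor that drives fatty acid oxidation in the liver, had 32 members against 5 sequences inside. They ran from 8 to 7978 nt past the end, the farthest of any liver member.

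The other genes shown here had shorter runs. Elk4, an ETS transcription factor, had 10 members from 163 to 6104 nt, and Alb, which encodes serum albumin, had 10 from 420 to 1572 nt. The 10 members of Car3, a carbonic anhydrase, all lay within 84 to 199 nt of the end. H6pd, which makes NADPH in the endoplasmic reticulum, had 9 from 6 to 2151 nt. Ccrn4l (Noct), a circadian gene, had 7 from 435 to 3507 nt. Mat1a, the liver enzyme that makes S-adenosylmethionine, had 6 from 110 to 1485 nt, and G0s2, an inhibitor of fat lipolysis, had 6 from 495 to 907 nt. Members outnumbered the inside sequences at 11 of the 127 genes, among them Ppara, Elk4, H6pd, Ccrn4l and G0s2, while Alb had 41 inside and Mat1a had 16.

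In WT spleen the 218 members fell at 71 genes, and sequences inside a 3' UTR came from 341. A single member was found at 30 genes, 12 had 5 or more, and the first 10 held 97 members, or 44.5%. Vmp1, which works in autophagy and whose 3' UTR overlaps the gene of miR-21, had the most, with 21 members from 1352 to 6587 nt and 159 sequences inside, 157 of them at Mir21. None of the 364 liver members was at Vmp1, but the deposited liver cluster stopped at its annotated end, so the list could hardly hold any. WT liver had 163 sequences inside the Vmp1 3' UTR, 161 of them at Mir21. Elk4 had 17 members from 162 to 8462 nt, the farthest of all. D4Wsu53e (Rsrp1), an arginine- and serine-rich protein, had 14 from 614 to 3487 nt and only 2 sequences inside.

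Pik3c2a, a lipid kinase, had 8 members from 2295 to 4087 nt. Evi2a, a membrane protein gene, had 7 from 1857 to 2860 nt, and Zcchc6 (Tut7), which adds uridines to the ends of RNAs, had 6 from 895 to 1862 nt. Xpot, the exportin for tRNAs, had 6 within 497 to 662 nt, and the transcription factor Ets1 had 6 from 1001 to 3045 nt. Mllt6 had 6 from 153 to 739 nt. Rhob, a small GTPase, had 6, of which the first straddled the end and the last lay at 1133 nt. Etnk1, an ethanolamine kinase, was named for its distance: its 3 members reached 4434 nt. Members outnumbered the inside sequences at 20 of the 71 genes, and 2 of these, Skp1a and Srsf11, had no inside sequence of 21 to 26 nt in this list; both were named after their values were seen.

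**Figure D1:**
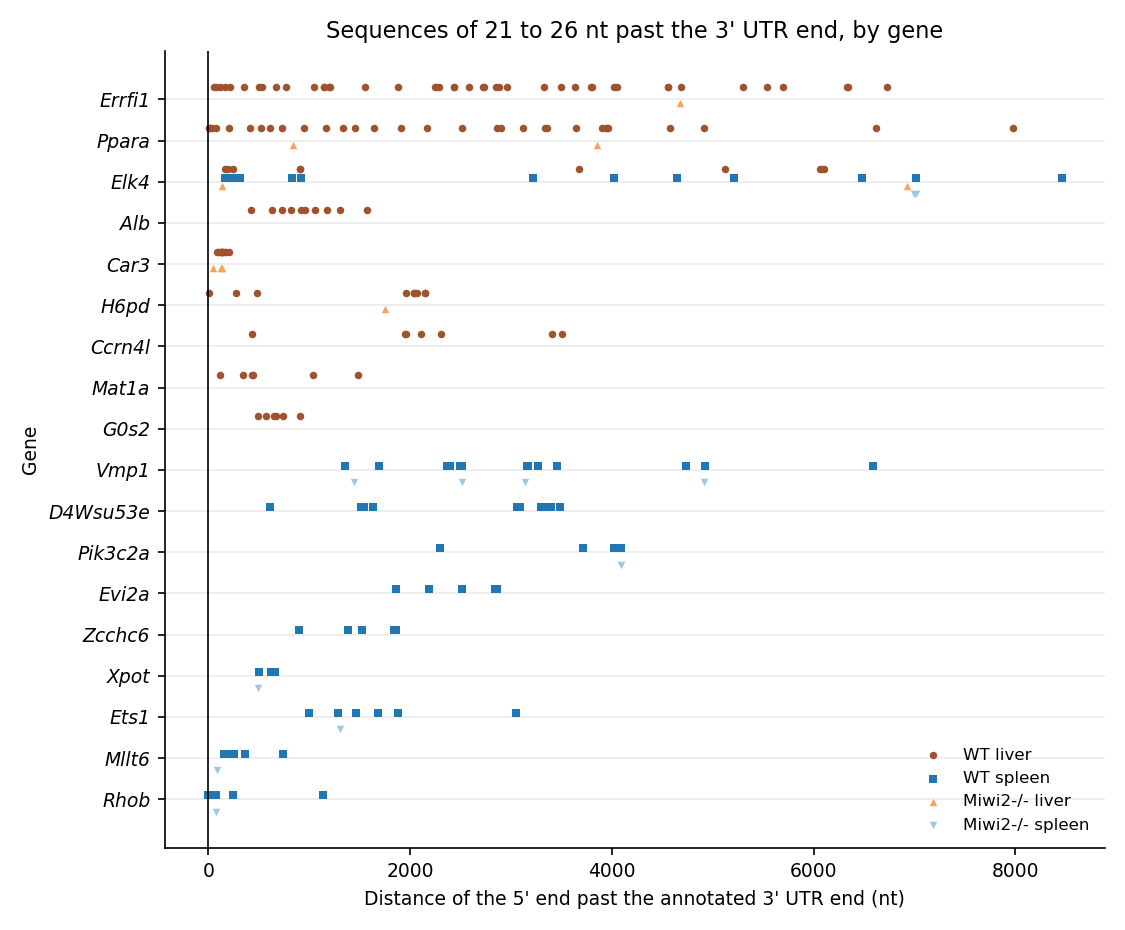
Each point is a distinct sequence of 21 to 26 nt, placed by the distance of its 5' end past the annotated 3' UTR end in nt, for genes with many members in either WT tissue and with 1 row of points per library. Errfi1 and Ppara are dotted over several kb, in liver alone, Car3 is confined to 84 to 199 nt in WT liver, and Elk4 has points from both tissues.

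Markers of hepatocytes were found in the liver lists only, and markers of spleen cells in none of the lists, so the spleen label was not checked by them. Of 16 hepatocyte genes, 6 had a sequence inside or past their 3' UTR in WT liver (Alb, Apob, Ahsg, Fgb, Hnf4a and Ppara), and 0 did in either spleen library. Past the end, 5 of the 16 had members in WT liver, 48 in all, with Ppara and Alb giving 32 and 10 and Ahsg, Hnf4a and Fgb giving 3, 2 and 1. Of 16 genes typical of B cells, T cells, myeloid cells and red cells of the spleen, none had a sequence in any of the 4 lists.

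Liver and spleen shared few genes past the end. Both WT lists had members at 6 genes, which is 4.72% of the 127 liver genes and 8.45% of the 71 spleen genes. For sequences inside a 3' UTR, 51 genes were in both lists, 10.5% of 486 and 14.96% of 341. Beside Elk4, with 10 members in liver and 17 in spleen, these included genes with few members. Alg10b, a glucosyltransferase of the N-glycan pathway, had 1 in liver at 2057 nt and 3 in spleen up to 2877 nt. Ly6e, a GPI-anchored surface protein, had 1 at 471 nt and 3 from 512 to 1602 nt. Midn had 1 at 56 nt and 3 from 26 to 252 nt, and C130039O16Rik had 1 at 1333 nt and 1 at 180 nt. Of the liver members, 6 (1.65%) overlapped a spleen member on the same strand, while 289 of the 2307 inside sequences of liver (12.5%) overlapped one of spleen. The inside sequences include 161 at Mir21 in WT liver and 157 in WT spleen, and the overlap was not counted without them.

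The share of members among sequences past the end and inside was 13.6% in WT liver (Wilson 95% interval 12.4 to 14.98, 364 of 2671) and 12.3% in WT spleen (10.8 to 13.9, 218 of 1777). The difference of 1.36 percentage points did not pass a two-sided Fisher's exact test on distinct sequences (p = 0.204). Such a test compares 2 libraries and not 2 conditions, and it counts overlapping sequences of a gene as independent, so its p is too small. This comparison turned on the step: with steps of at most 1 kb the share was 10.8% in liver and 6.93% in spleen (exact p = 1.84e-05), and with steps of at most 500 nt it was 7.498% and 3.59% (exact p = 1.16e-07).

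The median distance was larger in WT spleen than in WT liver, and this order depended on the step. The median distance was 1142 nt in WT liver, with quartiles of 528.25 and 2192.5 nt, and 1552.5 nt in WT spleen, with quartiles of 733 and 2537.5 nt. No test was made of this difference, since Vmp1, Errfi1 and the other large genes weigh on each median, and with steps of at most 1 kb the medians were 866 nt in liver and 790 nt in spleen. In WT liver 25 members (6.87%) and in WT spleen 17 (7.80%) lay more than 4000 nt past the end, and 7 and 1 straddled it. The clusters that the study deposited ran a median of 1414 nt past the GENCODE M1 end at the 127 liver genes and 1751 nt at the 71 spleen genes. The longest steps that were still allowed were 1998 nt at Cyp2f2 and 1983 nt at Gpld1 in liver and 1921 nt at Dact1 and 1857 nt at Evi2a in spleen, and steps of up to 3 kb gained no member in either WT library. The study had itself stretched each cluster downstream only while a sense small RNA was found per 2 kb, so longer steps could hardly occur in the lists. At the limit on overlap, a member of Ppara at 4577 nt was 44.0% inside the 3' UTR of 2210021J22Rik, a gene on the opposite strand, and 1 of Rhob was 45.5% inside that of Rhob, and the inside sequences with the least overlap were 1 of Zfp36 at 50% and 1 of Hist1h4h at 60%.

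**Figure D2:**
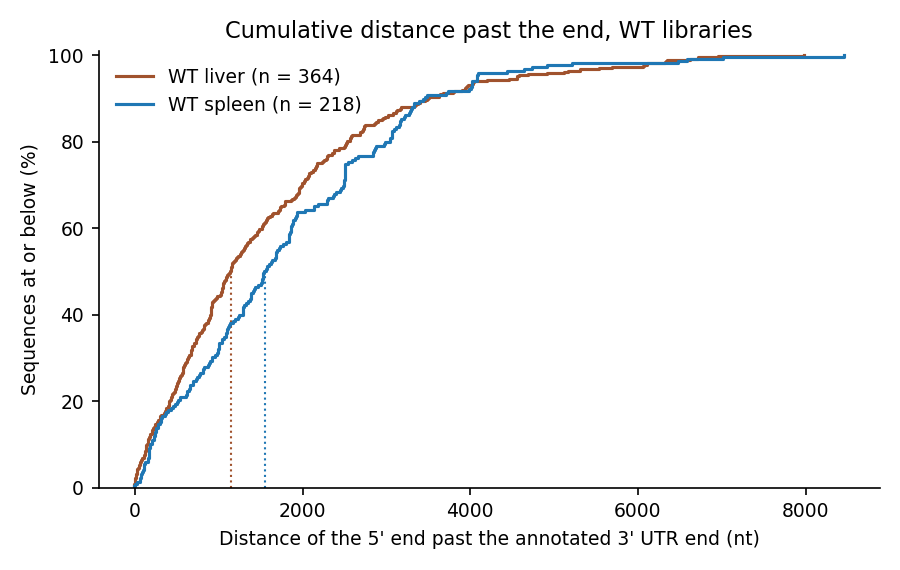
The share of members at or below each distance past the annotated 3' UTR end is plotted in percent against distance in nt for WT liver (364 sequences) and WT spleen (218), with dotted lines at the medians. The spleen line runs below the liver line over its middle part, and its median is 1552.5 nt against 1142 nt.

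Members started with other bases than the sequences inside. In WT liver 26.1% started with C (95 of 364) against 14.0% inside (323 of 2307), and 15.4% started with G against 9.10%. Those with A were 26.9% against 36.02%, and those with U 31.6% against 40.9%. All 4 liver differences passed two-sided Fisher's exact tests adjusted over 8 tests (Benjamini-Hochberg), with p = 2.05e-07 for C, 0.0012 for G, and 0.00129 for both A and U. In WT spleen 15.6% started with G against 7.18% (exact test, adjusted p = 0.000405), 20.2% with C against 14.2% (0.034) and 31.2% with A against 38.8% (0.0351), while U was at 33.0% against 39.8% (0.0636). U and A were the most frequent 5' bases past the end in both tissues, as they were inside, though the intervals of A and C past the end overlapped in liver and those of U and A in spleen.

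The excess of C in liver also stood when members were compared with the inside sequences of the same genes (a difference of 11.2 percentage points, exact test, adjusted p = 5.65e-05), an alternative chosen after seeing the data. In that comparison the liver differences of G and U and the spleen difference of A no longer passed. In spleen U passed with a difference of -16.1 points (exact test, adjusted p = 0.000219). Of the 497 inside sequences of spleen compared there, 157 lay at Mir21, and the comparison was not run without them. The bases inside the sequences differed too, which bears on these shares. C made up 20.2% of the inner bases of liver members and 16.4% of those of inside sequences. Against its own inner bases, 5' C differed by 5.91 points in liver members and by -2.38 points in inside sequences of liver, and 5' U was 7.19 points higher in the former and 11.5 in the latter. In WT spleen 5' C differed by -1.13 points in members and by -2.30 inside, and 5' U was 9.47 and 10.5 points higher. With at most 500 nt to a step, the difference of 5' C in spleen turned to -5.62 points (exact test, adjusted p = 0.34), so its direction in spleen depended on the step. The spleen call for C was also lost without Mir21 (exact test, adjusted p = 0.13), without members in any exon (0.134), with 1 sequence per 5' end (0.191) or per overlapping group (0.151) and at steps of 1 kb (0.469), and that for A without members in any exon (0.289). The liver call for U was lost without Mir21 (exact test, adjusted p = 0.0525), and with 1 sequence per 5' end (0.076) or per overlapping group (0.052). With exact placements only, with chains made anew from 107 liver and 50 spleen members, 5' C in liver alone passed among the 8 tests.

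**Figure D3:**
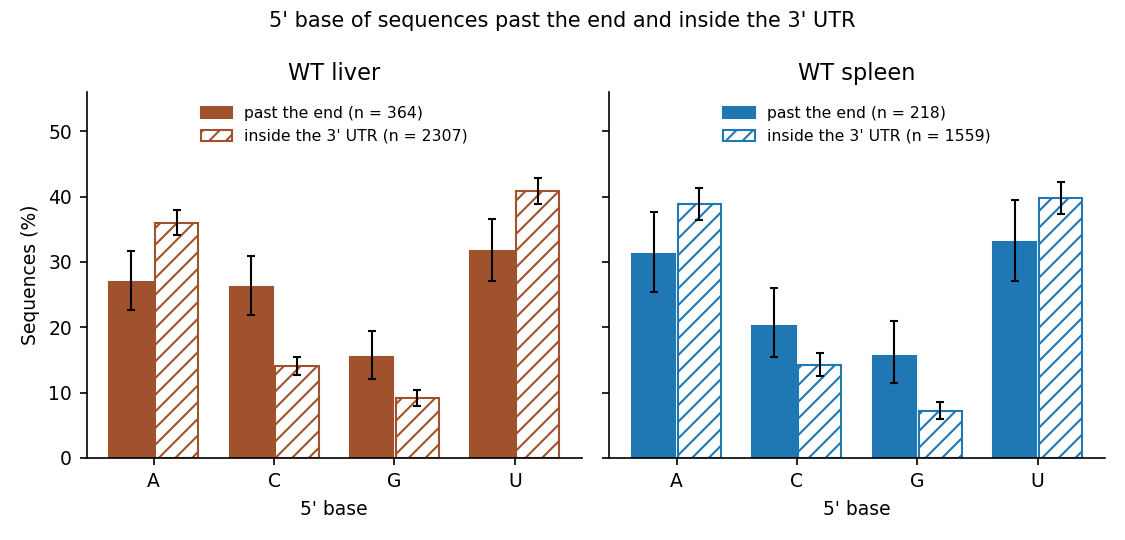
Bars give the percent of sequences with each 5' base, filled for members past the end and hatched for sequences inside the 3' UTR, in WT liver and WT spleen, with Wilson 95% intervals that cover counting error only. The filled C bar of liver (26.1%) stands above its hatched bar (14.0%), and the filled G bars are above the hatched ones in both tissues.

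An A at the 3' end that does not match the genome was more frequent among members than inside, but the share ending in an A of any kind was not higher. In WT liver 212 of 364 (58.2%) ended in an A that does not match the genome, against 45.3% inside, and in WT spleen 121 of 218 (55.5%) did, against 44.3%. Both differences passed the exact test (adjusted p = 1.15e-05 and 0.00225). An A shows as unmatched only where the genome has another base at that same place. The next genome base, just after the sequence, is a different place and does not decide this. It was an A in 27.7% of liver members against 33.2% inside, and in 23.4% against 33.2% in spleen. Sequences ending in any A were 83.8% of liver members and 85.3% of inside sequences, and 78.0% and 85.6% in spleen. Of the sequences without a mismatch, 73.3% past the end and 82.9% inside ended in A in liver, and 68.8% and 85.9% in spleen. Per the study's methods, trimming allowed mismatches between adapter and read. Whether the last A belonged to the RNA or was left from the adapter was not tested. Among the genes, Errfi1 had 25 of 44, Ppara 15 of 32, Vmp1 10 of 21, and Elk4 2 of 10 in liver and 9 of 17 in spleen. The spleen difference was 6.57 points and did not pass without the sequences at Mir21 (exact test, adjusted p = 0.0804), and it was also lost with 1 sequence per 5' end (0.0633) or per overlapping group (0.195) and at steps of 1 kb (0.0997).

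A mismatch at the other end was rarer but more uneven. All 12 liver members and all 22 spleen members that had their mismatch at the 5' base had a U there. They were 3.30% of the liver members, against 15 of 2307 inside (0.650%), and 10.1% of the spleen members, against 14 of 1559 (0.898%), with exact adjusted p = 8.69e-05 and 5.32e-12 in a comparison chosen after seeing the data. Read on the opposite strand, such a sequence ends in an A that the genome lacks. The strand itself is not in the lists, because every sequence is given in the direction of the plus strand, and it was taken from the gene. In WT spleen these sequences were at D4Wsu53e (4), Vmp1 (4), Zcchc6 (4), Mllt6 (2) and Shisa5 (2), with single ones at 6 more genes. Those of Zcchc6 are shown, since 4 of its 6 members were of this kind and none ended in an unmatched A:
Zcchc6, 895 nt past the end, chr13:59872322-59872345, minus strand: Ucccgaucuucaccuucuaacagu
Zcchc6, 1522 nt past the end, chr13:59871696-59871718, minus strand: Uccguucuuacgucaucacgggc
Zcchc6, 1843 nt past the end, chr13:59871375-59871397, minus strand: Ucagcuccagagucacagagccg
Zcchc6, 1862 nt past the end, chr13:59871355-59871378, minus strand: Uccguguccccacuuccggggggu
At all 4 places GENCODE M1 has an exon of Etohd2, a long noncoding RNA gene on the opposite strand. In WT liver Cables2 had 2, in exons of Rps21 on the opposite strand, and the other 10 were at 10 genes. Most sequences of this kind were not in an exon of another gene. Such exons held 3 of the 12 in liver and 6 of the 22 in spleen, and 9 and 16 lay elsewhere. All 4 of D4Wsu53e, all 4 of Vmp1 and the 2 of Mllt6 lay between annotated genes. Without the unmatched 5' U sequences, 5' U in spleen differed by -13.7 points past the end from inside (exact test, adjusted p = 0.00031). In spleen 5' A then no longer passed (exact test, adjusted p = 0.243).

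Short sequences were less frequent among the members of WT liver than inside the 3' UTR. Sequences of 21 to 23 nt were 42.9% of liver members and 51.8% of inside sequences (exact test, adjusted p = 0.00315), and 53.2% and 57.2% in WT spleen (exact test, adjusted p = 0.274). Without the Mir21 sequences the liver difference was -6.12 points and did not pass (exact test, adjusted p = 0.0625). Where an unmatched A at the 3' end was not counted in the length, the spleen difference passed (-8.78 points, exact test, adjusted p = 0.0132). Whether the contrasts between past and inside differed between the tissues was tested from their log odds ratios, and none of 7 such differences passed, with a smallest p of 0.477 adjusted over 8 tests.

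Most members lay between annotated genes. This was so for 311 of 364 in WT liver (85.4%, interval 81.4 to 88.7) and 145 of 218 in WT spleen (66.5%, 60.01 to 72.4). An exon of another gene covered at least 50% of 38 spleen members (17.4%) but of 7 liver members (1.92%), and this difference passed a two-sided Fisher's exact test (p = 2.04e-11), chosen after seeing the data. The test set 1 library against another and counted overlapping sequences as independent, so its p is too small. The 7 liver sequences were at 6 genes and the spleen sequences at 14. On the same strand, 6 of the 8 members of Pik3c2a lay in Snord14a, a small nucleolar RNA within the Rps13 gene, 5 of the 6 of Xpot in exons of Tbk1, a kinase of innate immunity, 4 of the 7 of Evi2a in Evi2b, and 3 of the 14 of D4Wsu53e in Syf2. On the opposite strand, 5 members of Zcchc6 lay in Etohd2 and 5 of Shisa5 in Trex1 or Atrip. From which of the overlapping transcripts such members came was not tested. The Pik3c2a sequences at Snord14a are shown because 4 of them end at 1 and the same base:
Pik3c2a, 4083 nt past the end, chr7:123476683-123476707, minus strand: AccuuccuuggaugucugagugagA
Pik3c2a, 4084 nt past the end, chr7:123476683-123476706, minus strand: CcuuccuuggaugucugagugagA
Pik3c2a, 4086 nt past the end, chr7:123476683-123476704, minus strand: UuccuuggaugucugagugagA
Pik3c2a, 4087 nt past the end, chr7:123476683-123476703, minus strand: UccuuggaugucugagugagA
In liver the members of the large genes were mostly outside any gene: all 44 of Errfi1 and all 10 of Alb and of Car3, and 28 of the 32 of Ppara. Elk4 was the exception in both tissues, since GENCODE M1 has a longer transcript of its own there: 10 of 10 liver members and 15 of 17 spleen members lay in an intron of Elk4 or in an exon outside its protein-coding 3' UTRs.

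**Figure D4:**
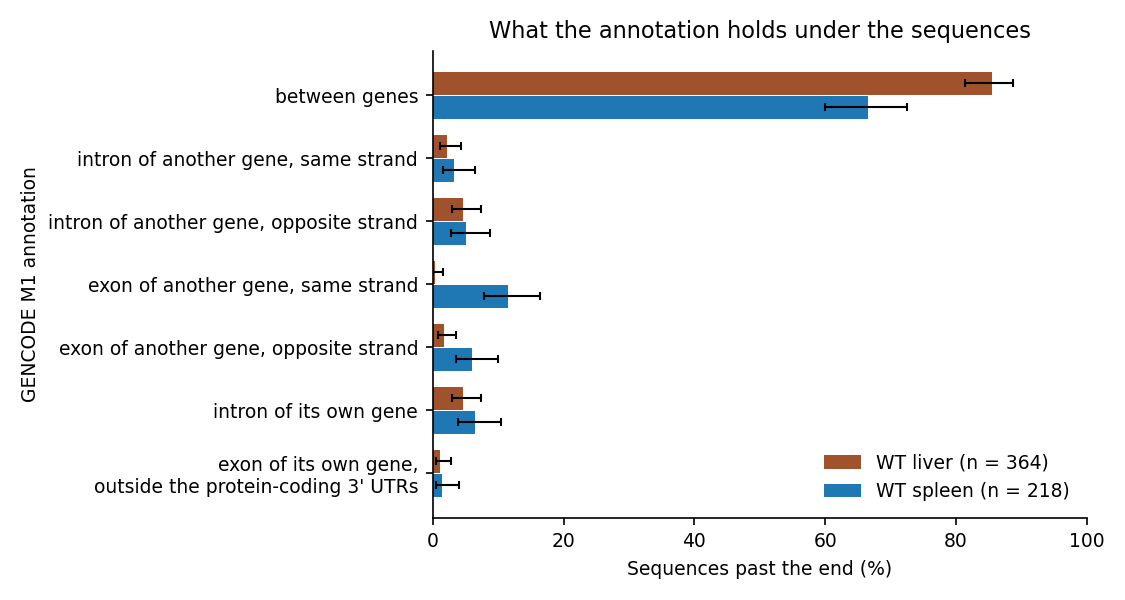
Bars give the percent of members past the end that lie in each class of the GENCODE M1 annotation, for WT liver (364) and WT spleen (218), with Wilson 95% intervals. Between genes lay 85.4% of liver and 66.5% of spleen members, and exons of other genes on the same strand held 0.275% and 11.5%.

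The poly(A) signal was looked for as AATAAA or ATTAAA on the strand of the gene. One of them stood in the last 50 nt before the annotated end at 103 of the 127 liver genes with members (81.1%) and at 57 of the 71 spleen genes (80.3%). The share was 68.3% over 21942 protein-coding 3' UTR ends, 88.9% at the 359 genes with inside sequences only in liver, and 87.5% at the 272 such genes in spleen. Around the 3' end of the last sequence of the chain, a window of 100 nt held a hexamer at 11 of 127 liver genes (8.66%) and 4 of 71 spleen genes (5.63%). Windows of 100 nt between the annotated end and that sequence held one in 9.49% and 10.4%. Most annotated ends of these genes thus had a signal before them, and the places where the chains stopped did not have it more often than the stretch before. At Car3 a member itself began with the hexamer, and it was found in 2 forms, shown here, of which 1 ends in an unmatched A:
Car3, 160 nt past the end, chr3:14872511-14872532, plus strand: AauaaaagacagauggcaaauA
Car3, 160 nt past the end, chr3:14872511-14872534, plus strand: Aauaaaagacagauggcaaaugaa

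The share past the end in the Miwi2-/- lists is given as a description, since the rule favours WT: a Miwi2-/- sequence was counted only where a chain of WT sequences reached it. It was 7.45% in Miwi2-/- liver (28 of 376, interval 5.20 to 10.6) against 13.6% in WT liver, and 7.72% in Miwi2-/- spleen (19 of 246, 5.0 to 11.7) against 12.3% in WT spleen. In these lists 2 liver and 3 spleen sequences of 21 to 26 nt were neither inside nor past an end. The Mir21 sequences in the Vmp1 3' UTR weighed on these shares, as they made up 161 of 2307 inside sequences in WT liver and 70 of 348 in Miwi2-/- liver, and 157 of 1559 and 50 of 227 in spleen. Without them the shares were 14.5% and 9.15% in liver and 13.5% and 9.69% in spleen.

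Of the 21 genes with members in Miwi2-/- liver, 20 also had members in WT liver, and of the 13 in spleen, 11 did. The rule largely set this overlap in advance, since a Miwi2-/- member needed a chain of WT sequences at its gene. The counts by gene that follow are not corrected for library size. Uniquely aligned distinct sequences numbered 13288 in Miwi2-/- liver against 64572 in WT liver, and 25218 against 129176 in spleen. Car3 had 3 members in Miwi2-/- liver, from 40 to 136 nt, against 10 in WT. Ppara had 2 against 32, at 834 and 3851 nt, and Errfi1 had 1 against 44, at 4674 nt. Serpina3k, a serine protease inhibitor, had 2 against 4, Gpld1, a phospholipase that releases GPI-anchored proteins, 2 against 2, and Elk4 2 against 10. In Miwi2-/- spleen Vmp1 had 4 members against 21 in WT, from 1438 to 4915 nt. Elk4 had 2 against 17, at 6995 and 7017 nt, the histone genes Hist1h4h and Hist1h3a had 2 against 5 and 2 against 2, and Pik3c2a and Ets1 had 1 each against 8 and 6. No sequence past the end was the same in WT and Miwi2-/- liver, where 0 of 28 allows a share of up to 10.7%. Of the 28, 4 (14.3%) overlapped a WT member. In spleen 2 of 19 (10.5%) were the same and 11 of 19 (57.9%) overlapped one. Of the 348 inside sequences of Miwi2-/- liver, 85 (24.4%) were the same as in WT and 202 (58.0%) overlapped one. Of the 227 in spleen, 73 (32.2%) were the same and 134 (59.0%) overlapped one. The 348 and 227 include 70 and 50 at Mir21. The median distance of the Miwi2-/- members was 851.5 nt for liver and 1438 nt for spleen.

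**Figure D5:**
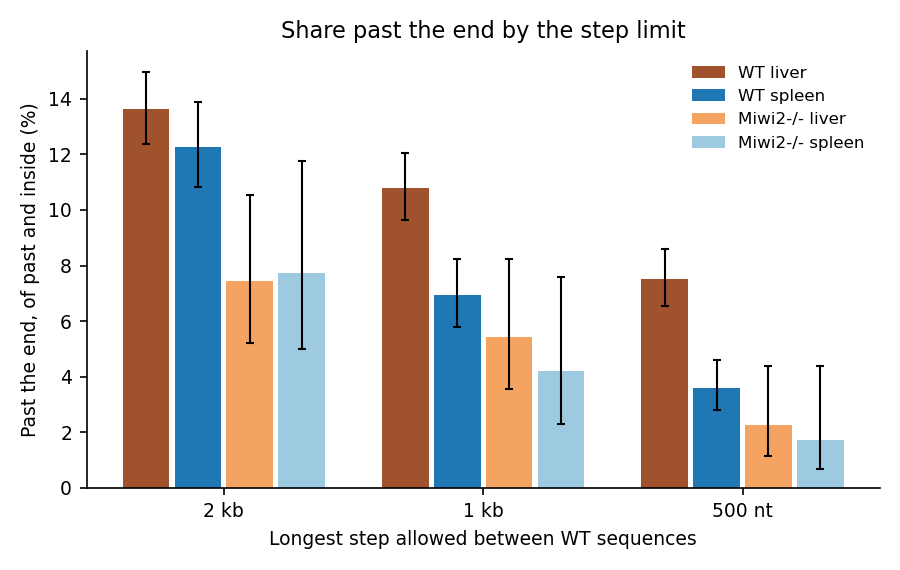
Bars give members past the end as a percent of members and inside sequences in each of the 4 libraries when steps of at most 2 kb, 1 kb or 500 nt are allowed, with Wilson 95% intervals. At 2 kb the shares are 13.6% and 12.3% in WT liver and spleen and 7.45% and 7.72% in the Miwi2-/- libraries. With shorter steps WT spleen falls further below WT liver.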

How the data were processed

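What the authors deposited for each library is a list of distinct sequences, without counts, positions or genes, and for each tissue a BED file of 3' UTR clusters; both are data of another kind than counts or normalized values. Per the study's methods, adapters were trimmed, identical reads collapsed, known noncoding RNAs removed with Bowtie and unique alignments to mm9 with at most 1 mismatch kept. The labels also name CASAVA 1.8. Here all 7845 sequences were placed on NCBIM37 without gaps (Python 3.11.15, numpy 2.4.6, numba 0.67.0), and each had a single best place. On simulated sequences, 500 of 500 with 1 mismatch returned to their place. Gene and strand came from the deposited cluster that covers the sequence and otherwise from the nearest GENCODE M1 3' UTR end. By the nearest end alone, 19 WT liver members would take the opposite strand. Of 488 liver and 345 spleen clusters, 487 and 343 had a symbol by RefSeq accession.

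Shares were compared by two-sided Fisher's exact tests (scipy 1.17.1) with Benjamini-Hochberg adjustment, and intervals are Wilson 95%; both cover counting error only. Sequences outside 21 to 26 nt were not used except in an alternative. Members and lists were chosen with earlier results of these data known. The genes named are, per WT tissue, the 10 with the most members and the 3 with the farthest, up to 10 found in both WT tissues, and up to 6 per Miwi2-/- library. Some results are not reported here. Figures were drawn with matplotlib 3.10.9.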

Additional observations from a re-analysis of the deposited data

How the results depend on the processing

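No paired analysis was possible because each group holds 1 library. Of 319 alternative values for 26 results, 248 kept their direction and call or stayed within their interval. The shares of unmatched 5' U and of exons of other genes kept their calls in all alternatives run. Differences below are in percentage points, with members past the end first, and exact tests throughout. Each difference listed had lost its call at that setting, with these exceptions. Liver minus spleen and short sequences in spleen gained a call. 5' U in spleen, which had no call, gained one where it is negative and changed sign where it is positive, and 5' C in spleen changed sign where it is negative. The differences of Miwi2-/- spleen are descriptions, since the rule favours WT. The cause of a change was not tested.

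With steps of at most 1 kb the share past the end was 10.8% in WT liver, 6.93% in WT spleen and 4.22% in Miwi2-/- spleen, the median distance 866 and 790 nt in liver and spleen, and the liver minus spleen difference 3.86. The spleen differences were 8.26 for the unmatched A, 3.0 for 5' C, 0.748 for 5' U and -2.71 for Miwi2-/- against WT. With steps of at most 500 nt the shares were 7.498% and 3.59% in WT liver and spleen and 2.25% and 1.73% in the Miwi2-/- lists, the medians 566 and 252.5 nt, and the liver minus spleen difference 3.91. The differences were then -8.21 for 5' A and -7.19 for 5' U in liver, -11.2 for 5' A, -5.62 for 5' C and 6.78 for 5' U in spleen, -5.27 for short sequences in liver, and -1.86 for Miwi2-/- spleen against WT.

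With exact placements only, which leave no unmatched A to compare, the shares past the end were 10.2%, 8.0% and 3.33% in WT liver, WT spleen and Miwi2-/- liver. The differences were -10.9, 2.21 and -1.91 for 5' A, G and U in liver, -13.2, 10.96, 0.348 and 1.91 for 5' A, C, G and U in spleen, -5.45 for short sequences in liver, and -1.06 for Miwi2-/- spleen against WT. With 1 sequence per 5' end the WT spleen share was 14.0%, and the differences were 7.10 for the unmatched A and 3.92 for 5' C in spleen, -5.32 for 5' U in liver, and -3.86 for Miwi2-/- spleen. With 1 sequence per overlapping group the WT liver share was 17.0%, liver minus spleen 3.53, the unmatched A in spleen 5.46, short sequences in liver -5.97, 5' C in spleen 4.61, 5' U in liver -6.05, and Miwi2-/- spleen -2.60.

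Without Mir21 the unmatched A in spleen differed by 6.57, short sequences in liver by -6.12, 5' C in spleen by 4.49, 5' U in liver by -5.64, and Miwi2-/- spleen by -3.76. Without members in any exon the WT spleen share was 10.2%, liver minus spleen 3.07, and 5' A and C in spleen -4.34 and 4.40. With all lengths the WT spleen share was 14.2% and the Miwi2-/- spleen difference -2.63, and with 3' UTR ends that have no WT sequence the latter was -3.68. Without Errfi1 the WT liver share was 12.2%. With the unmatched A left out of the length, short sequences in spleen differed by -8.78.

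In alternatives chosen after seeing the data, leaving out unmatched 5' U gave -4.46 and -13.7 for 5' A and U in spleen, 2.06 for liver minus spleen and -4.14 for Miwi2-/- spleen. With inside sequences of the same genes only, 5' G and U in liver differed by 4.31 and -4.48, 5' A and U in spleen by -2.21 and -16.1, and short sequences in liver by -5.71. In spleen 157 of those 497 inside sequences lay at Mir21. Per 10000 uniquely aligned distinct sequences, the lists held 56.4 members for liver and 16.9 for spleen of WT, and 21.1 and 7.53 for those of Miwi2-/-, beside 357, 121, 262 and 90.0 inside.

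Without replicates no value here separates a condition from its library. Overlapping sequences share a source, and the strand comes from the gene. With 28 and 19 members, the Miwi2-/- lists limit what a comparison of genes can show.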
